A study of Drosophila melanogaster with 23 samples.

Results

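The genes that copy DNA and divide the cell were followed across 8 groups of cells or tissue from larval and adult Drosophila melanogaster. The set held 45 named genes, and a gene counted as measured where the probe annotation assigned a probe set to it alone. Where a gene had several such probe sets, the one with the highest mean over the 23 arrays was used. In all, 34 of the 45 genes were measured, among 11982 genes with a probe set of their own. The 11 others (Mcm7, Orc6, geminin, RnrS, CycA, Cdk1, stg, polo, aurA, BubR1 and pav) had no such probe set in the annotation used here and were not analysed. All 34 passed the filter on low values, a log2 value over 5 on at least 2 of the 23 arrays, as did 7670 genes in all. Each of the 34 exceeded 5 on all 3 larval Elav arrays, which alone was enough to pass. Cdc6 exceeded 5 on no other array, and thr and cid each on 1 other. Cdc6, thr and cid thus passed only through larval Elav cells. Their calls against larval Elav cells, counted below, are not independent of the filter.

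The study compared cells of the circadian clock circuit with neurons at large. Adult large Pdf and small Pdf cells were taken by cell size from Pdf-Gal4;UAS-GFP flies, adult eyes were dissected from heads, and adult Elav cells came from Elav-Gal4;UAS-GFP flies. Larval Pdf cells came from Pdf-Gal4;UAS-GFP, larval Tim cells from Tim-Gal4;UAS-YFP, larval Tim, Pdf-Gal80 cells carried Tim-Gal4;Pdf-Gal80;UAS-YFP and larval Elav cells from Elav-Gal4;UAS-GFP animals. Gal4 drivers switch on the fluorescent reporter in the cells where the named promoter is active, and Gal80 blocks Gal4, so that Pdf cells should be left out of the Tim, Pdf-Gal80 group. The animals lived in cycles of 12 h light followed by 12 h dark, and heads were dissected near Zeitgeber time 12, the time of lights off. Each group had 3 arrays, except adult small Pdf with 2, and the labels call them biological replicates without naming separate cultures, so the p-values weigh differences only against the variation among these arrays, which may be technical. The labels call the reporter of the Tim cells GFP in one place and YFP in another, and they give no age, sex or batch.

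Before a cell copies its DNA, the origin recognition complex (the Orc proteins) marks the start sites. Cdc6 and the Cdt1 protein, dup in flies, then load the MCM helicase, which opens the double helix once cyclin E and its kinase Cdk2 start S phase. In mitosis, cyclin B drives entry, condensin compacts the chromosomes, spindle kinesins and the chromosomal passenger proteins align them, and the spindle checkpoint holds separase back until every chromosome is attached. Neuroblasts, the stem cells of the larval brain, go through this cycle again and again, while mature neurons have left it.

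The values were log2 expression values, and 5 was taken as the limit of detection. Array medians over all probe sets ran from 2.90 to 3.31, and replicates correlated at r = 0.846 to 0.966 over the 7670 genes kept. Marker genes were set against the labels. In larval Elav cells the neuronal gene elav itself read 12.93, 10.52 and 11.22, but between 3 and 8 of 12 neuron markers were above 5 on an array, while all 9 neuroblast markers were above 5 on every array. Neuroblast markers above 5 numbered 7 to 9 of 9 in larval Pdf and larval Tim cells. In larval Tim, Pdf-Gal80 cells they numbered 4 to 5. There dpn, a defining neuroblast factor, read 2.50, 2.34 and 2.37, and ase, wor and grh were also below 5 on every array. On the same arrays mira read 7.73, 6.72 and 7.76, and insc 7.17, 7.84 and 6.17. The marker klu read 6.27, 6.32 and 6.92, brat 8.12, 7.48 and 9.94, and pros 9.49, 4.67 and 6.94. In the adult groups, 2 to 5 neuroblast markers were above 5 and all 12 neuron markers were above 5 on every array of sorted cells. The neuroblast markers above 5 included brat on every adult array and pros on every adult Elav and eye array. In the eye they also included insc and grh. Larval Pdf replicates 1 and 2 carried hemocyte (blood cell) markers, with Hml at 11.91 and 9.69 against 2.14 on replicate 3. Ring gland genes of hormone synthesis were above 5 for 6 of 6 genes on every larval Tim, Pdf-Gal80 array. The number was 4 to 6 on larval Tim arrays and 0 in every other group. Neuron markers were above 5 for 12 of 12 on every larval Pdf and Tim array and for 6 to 11 on Tim, Pdf-Gal80 arrays, where replicate 3 read 4.66 for nrv3 against 11.01 and 12.78 on the others. Glia markers were above 5 for 6 to 7 of 10 in larval Pdf cells, 7 to 9 in larval Tim cells, 3 to 6 in larval Tim, Pdf-Gal80 cells and 2 to 3 in larval Elav cells. These marker levels moved with the results that follow, and their part in them was not tested. In samples of many cells, fewer cells of a type and less RNA per cell cannot be told apart.

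The replication and mitosis genes were highest in larval Elav cells. Of the 34 measured genes, 33 had their highest group mean there. The exception was Bub1, a kinase of the spindle checkpoint, whose highest mean was in adult small Pdf cells. The median over the 34 genes ran from 10.76 to 11.60 on larval Elav arrays, from 7.74 to 8.99 on larval Pdf arrays, from 8.06 to 9.93 on larval Tim arrays and from 5.74 to 6.10 on larval Tim, Pdf-Gal80 arrays. On every array of the adult groups that median was below 5. Among the larval groups other than Elav, the lowest mean was in Tim, Pdf-Gal80 cells for 29 genes and in Pdf cells for 5. Mcm2, Orc2, Cdc6, PCNA, pim, thr, Klp61F and cid were above 5 on no adult array, and Mcm6, dpa and Bub1 were above 5 on all 23 arrays.

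**Figure D1:**
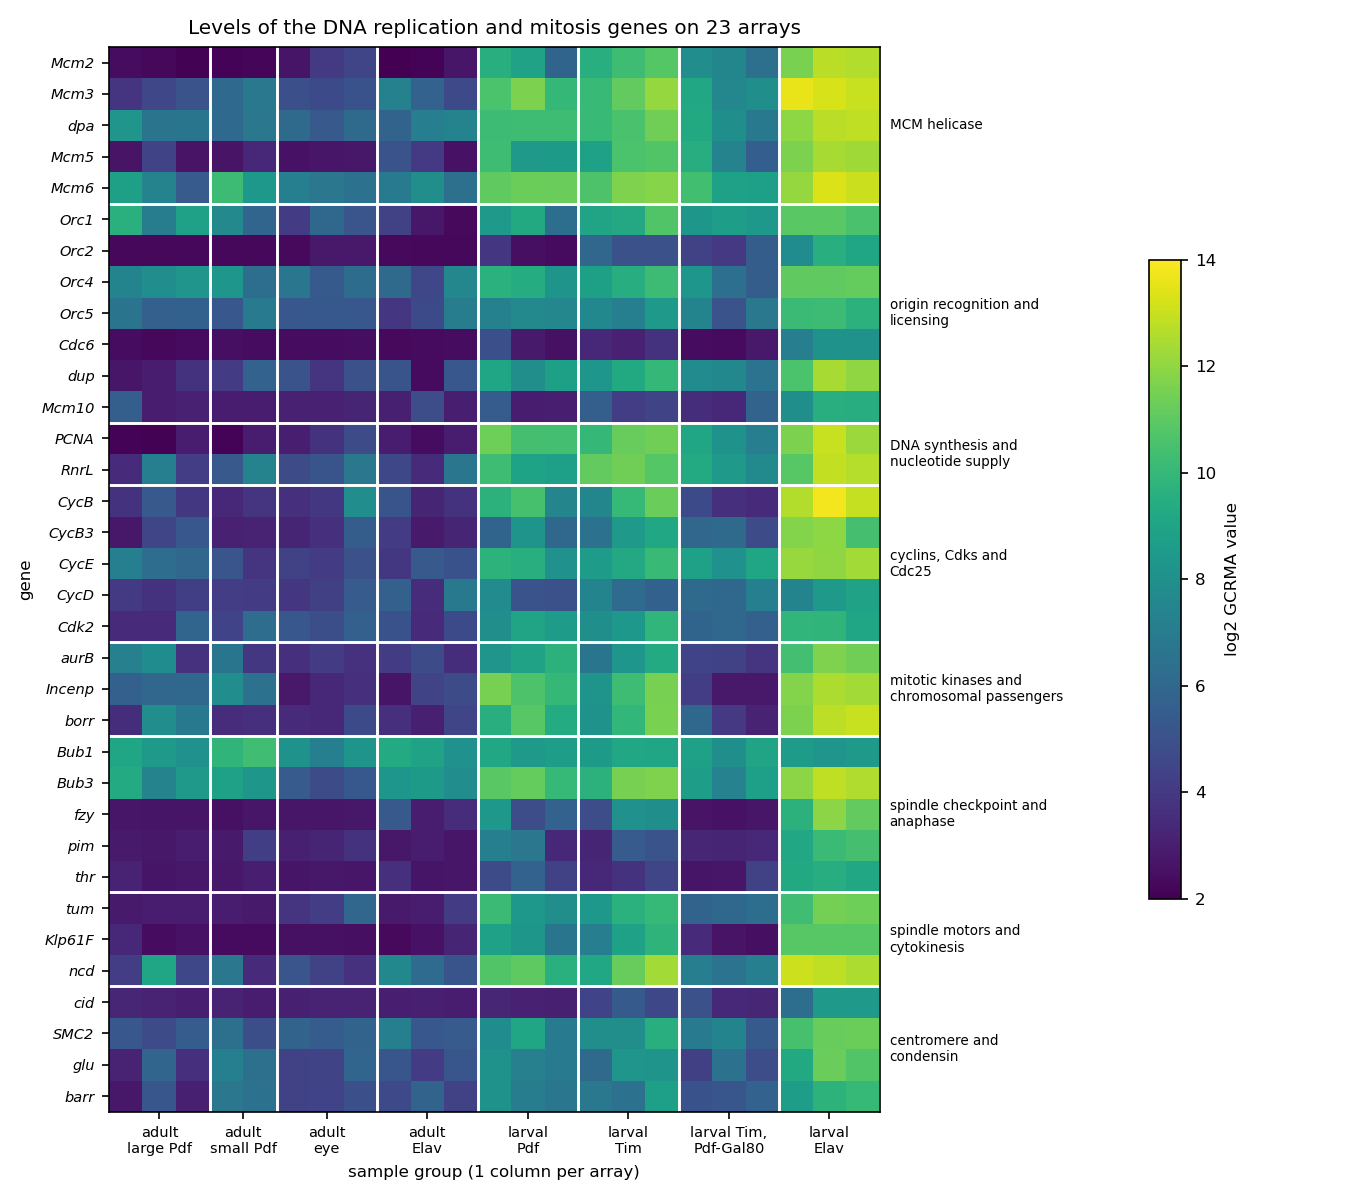
Log2 expression value of each of the 34 measured genes (rows, grouped by role) on each of the 23 arrays (columns, grouped by sample group), as colour from 2 to 14. The larval Elav columns at the right have the highest group mean in all rows except Bub1, and most rows are dark in the adult columns at the left, with Bub1 among the exceptions.

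Adult Elav cells set against larval Elav cells showed how these genes differed between the 2 ages under the same driver. Of the 34 genes, 33 were lower and 0 higher in adult Elav cells at an adjusted p under 0.05 and a fold of at least 2. Over all genes tested, 23.4% were called lower and 20.3% higher. For the same 33 genes all adult Elav arrays lay below all larval Elav arrays, as they did for 28.0% of all genes, and for 0 genes they lay above them, against 24.4% of all genes. The median difference over the 34 genes was -6.77 log2, or -5.76 with values under 5 raised to 5, beside -0.04 over all genes tested. The count stayed at 33 without any single array. In the same comparison 8 of 9 neuroblast markers were lower and 12 of 12 neuron markers higher in adult Elav cells.

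PCNA, the sliding clamp of the replication fork, was at 2.91, 2.38 and 2.90 in adult Elav cells, against 11.64, 13.01 and 12.18 in larval Elav cells. All adult arrays were under the limit of detection and all larval arrays far above it, so the gene was at least 155-fold lower in adult cells (log2 difference -9.55 ± 0.57 SE, adjusted p = 6.91e-10 with limma). Mcm2, a subunit of the MCM helicase, was at 2.04, 2.11 and 2.72 in adult Elav cells, against 11.57, 12.77 and 12.60 in larval Elav cells (at least 159-fold lower, adjusted p = 4.76e-09). Mcm3 and Mcm5, of the same helicase, were at least 154-fold and 138-fold lower. Mcm3, at 7.25, 5.78 and 4.66, was above the limit on 2 of 3 adult Elav arrays. The other 2 helicase subunits measured were above it on all 3 adult Elav arrays. Mcm6 was at 6.96, 7.93 and 6.43 in adult Elav cells, against 12.12, 13.38 and 13.05 in larval Elav cells, a 53.6-fold difference (adjusted p = 1.92e-06). dpa, which encodes the Mcm4 subunit, was also 53.6-fold lower, at a mean of 6.76 in adult and 12.51 in larval Elav cells.

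All 7 genes of origin recognition and licensing were lower in adult Elav cells. Orc1, the largest subunit of the origin recognition complex, was at 4.39, 2.79 and 2.29 in adult Elav cells, against 10.95, 10.92 and 10.57 in larval Elav cells, at least 56.3-fold lower (adjusted p = 2.66e-07). dup, the loader of the helicase, was at 5.12, 2.35 and 5.27 in adult Elav cells, against 10.62, 12.43 and 12.02 in larval Elav cells, at least 94.4-fold lower. Adult arrays thus lay near or below the limit for both genes. Orc4 and Orc5, other subunits of the origin complex, had adult means of 6.08 and 5.21 and were at least 29.2-fold and 20.6-fold lower. RnrL, the large subunit of the enzyme that makes deoxyribonucleotides, was at least 96.3-fold lower.

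Among the cyclins, CycB, the cyclin of mitotic entry, showed the largest difference with values under 5 raised to 5. It was at 5.14, 3.22 and 3.74 in adult Elav cells, against 12.61, 13.80 and 12.93 in larval Elav cells, at least 268-fold lower (adjusted p = 7.57e-07). CycE, which starts S phase with Cdk2, was at least 131-fold lower, CycB3, another mitotic cyclin, at least 84.3-fold lower, and Cdk2 at least 24.5-fold lower. CycD, the cyclin of growth and early G1, differed least of the 33, at 5.66, 3.50 and 6.86 in adult Elav cells, against 7.42, 8.51 and 8.90 in larval Elav cells (at least 5.42-fold lower, adjusted p = 0.00498).

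The chromosomal passenger genes were all under the limit in adult Elav cells. borr (borealin) was at least 179-fold lower, Incenp, the scaffold of the complex, at least 147-fold lower, and aurB, its kinase, at least 71.9-fold lower. Among spindle motors, ncd, a minus-end kinesin, was at 7.61, 6.19 and 5.12 in adult Elav cells, against 13.09, 12.86 and 12.50 in larval Elav cells, a 91.2-fold difference (adjusted p = 5.86e-05). Klp61F, the kinesin that pushes spindle poles apart, was at 2.32, 2.59 and 3.24 in adult Elav cells, against 10.89, 10.90 and 10.90 in larval Elav cells (at least 59.6-fold lower). tum, a subunit of centralspindlin that guides cytokinesis, was at least 66.6-fold lower. All 3 motor and cytokinesis genes thus changed in the same direction, with ncd the one still above the limit on every adult Elav array.

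The spindle checkpoint group divided. fzy, the fly Cdc20 that triggers anaphase, was at least 55.0-fold lower in adult Elav cells, pim (securin) at least 30.9-fold and thr (separase) at least 20.0-fold. Bub3, a checkpoint protein that binds kinetochores, kept a high level, at 8.31, 8.55 and 7.90 in adult Elav cells, against 11.91, 12.83 and 12.56 in larval Elav cells (18.1-fold lower, adjusted p = 7.18e-06). Bub1 was at 9.33, 8.90 and 8.09 in adult Elav cells, against 8.57, 8.27 and 8.46 in larval Elav cells. These groups overlapped, and the difference of 0.34 ± 0.43 log2 (SE) did not pass the test (adjusted p = 0.584). Bub1 passed it in none of the 13 comparisons run. Of the condensin subunits, SMC2 was 32.8-fold lower in adult Elav cells, glu (the SMC4 subunit) at least 39.6-fold and barr (the Cap-H subunit) at least 18.7-fold. cid, the centromeric histone, was at 3.03, 3.06 and 2.96 in adult Elav cells, against 6.32, 8.44 and 8.44 in larval Elav cells (at least 6.64-fold lower).

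**Figure D2:**
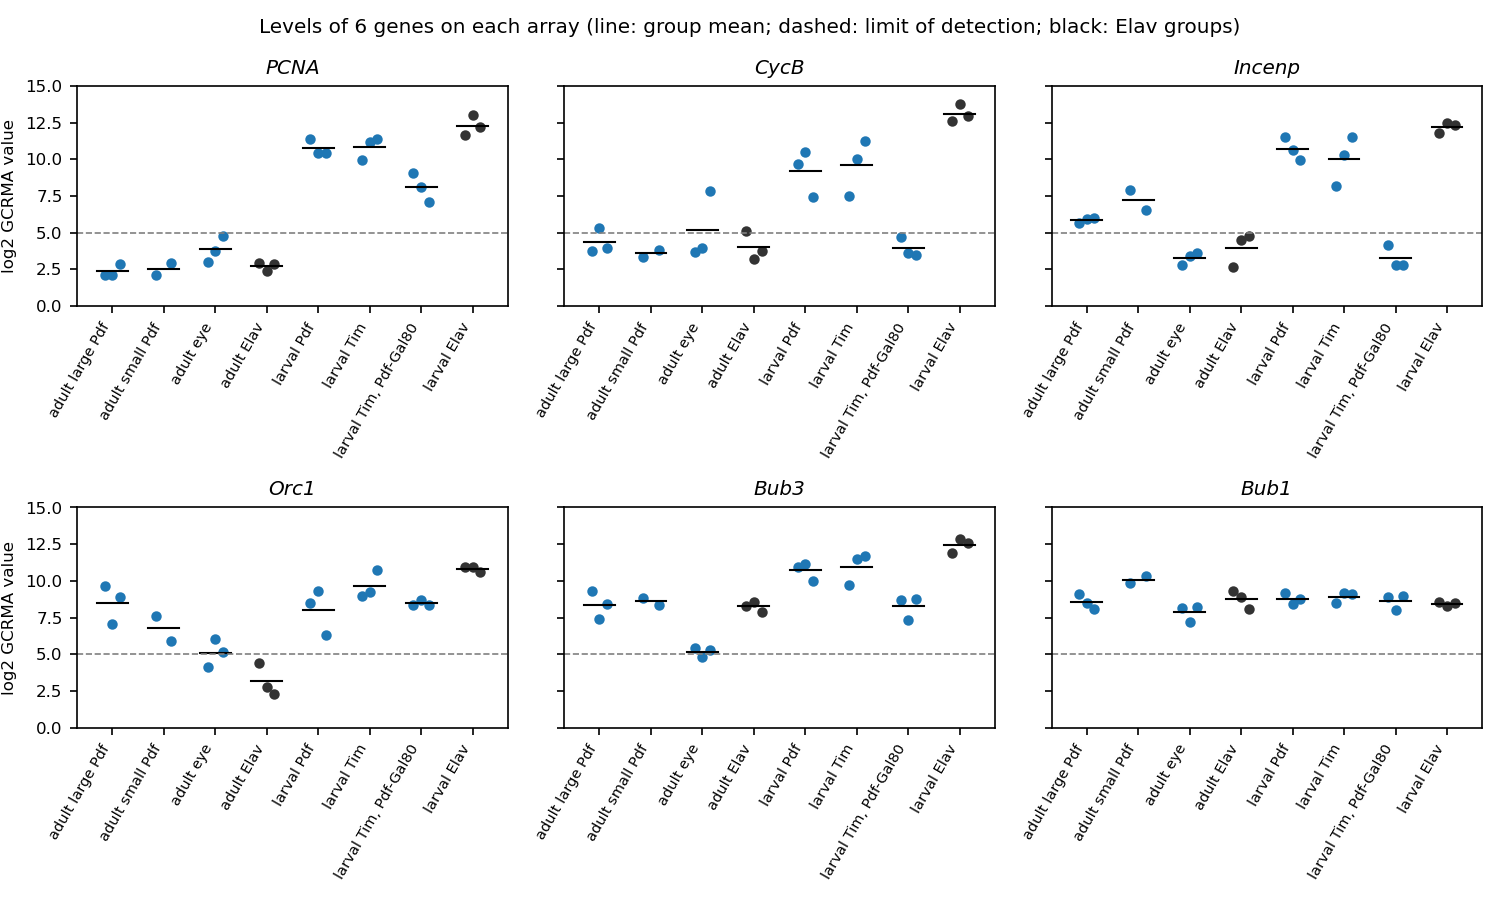
Log2 expression value of PCNA, CycB, Incenp, Orc1, Bub3 and Bub1 on each array (points, Elav groups in black), with the group mean (line) and the limit of detection of 5 (dashed). PCNA was above the limit on no adult array, Orc1 lay between 7.06 and 9.62 in adult large Pdf cells but under 5 in adult Elav cells, and Bub1 stayed between 7.19 and 10.31 on all arrays.

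The next comparisons set each larval clock group against larval Elav cells. They share the larval Elav arrays, so their values are given side by side only. In larval Pdf cells 25 of the 34 genes were lower and 0 higher (12.8% and 13.3% of all genes tested), with a median difference of -2.80 log2 beside -0.11 over all genes. In larval Tim cells 21 were lower and 0 higher (9.63% and 13.8% of all genes), with a median of -2.25 beside -0.09. In larval Tim, Pdf-Gal80 cells 32 were lower and 0 higher (25.4% and 14.7% of all genes), with a median of -4.56 beside -0.23. Arrays did not overlap for 32 genes in Pdf cells, 29 in Tim cells and 33 in Tim, Pdf-Gal80 cells, against 21.1%, 22.2% and 30.3% of all genes lower in that way. In the other direction there were 0 in each, against 16.3%, 18.2% and 20.2% of all genes. The Tim count fell to 10 without larval Tim replicate 1 (7.07% of all genes) and to 12 without larval Elav replicate 2 (5.83%). On larval Pdf replicate 3, the array without hemocyte markers, the median over the 34 genes was 7.74, against 10.76, 11.60 and 11.23 on the larval Elav arrays.

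**Figure D3:**
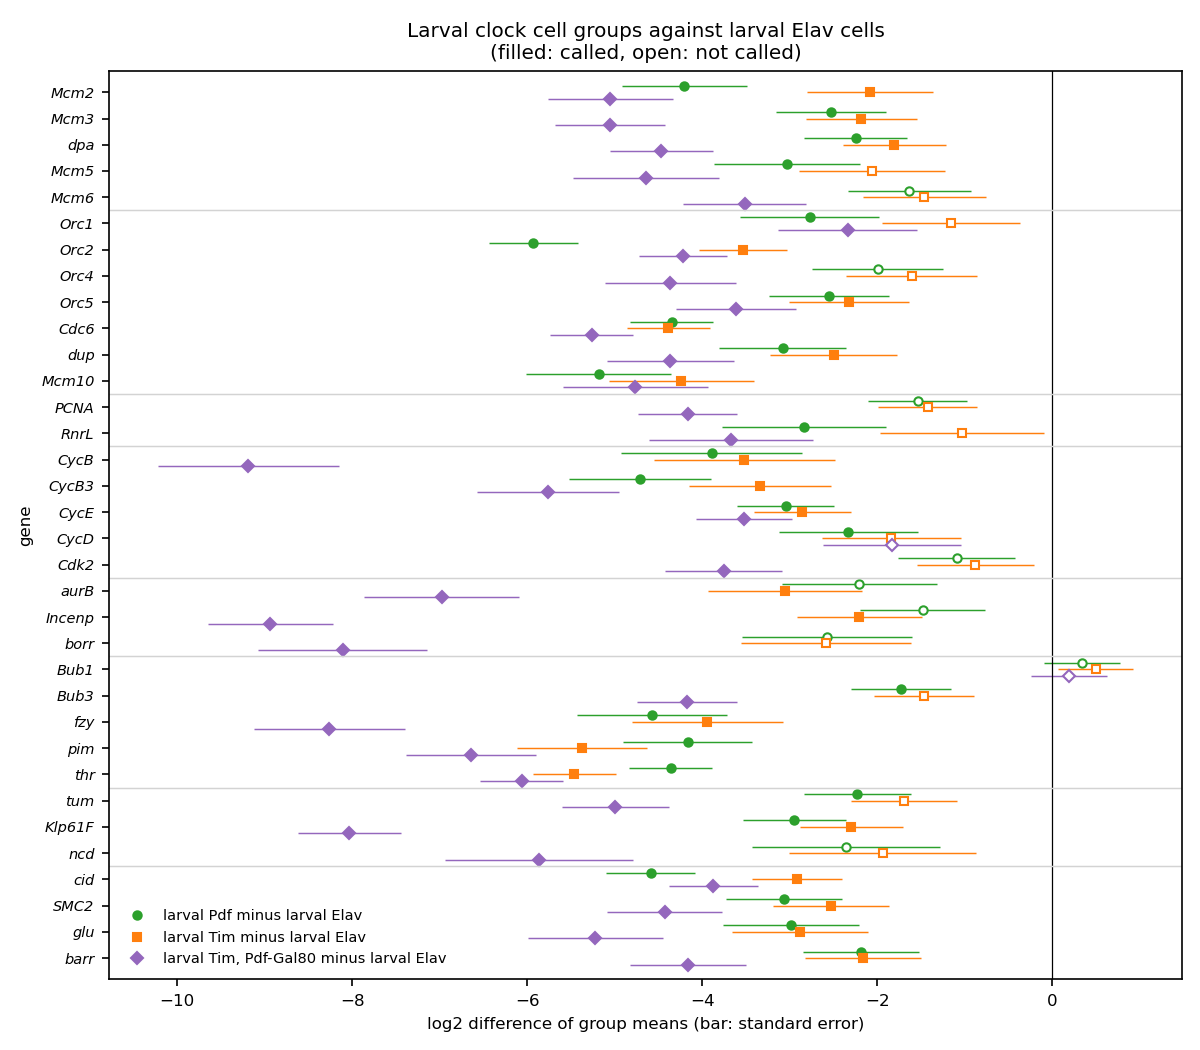
Log2 difference of each gene between a larval clock group and larval Elav cells (points, filled where called), with the standard error (bars), for Pdf (circles), Tim (squares) and Tim, Pdf-Gal80 cells (diamonds). Diamonds lie farthest left for most genes and reach -9.19 for CycB, or -8.11 with values under 5 raised to 5, since CycB was under the limit on all Tim, Pdf-Gal80 arrays, while all 3 symbols lie near 0 for Bub1.

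The 5 helicase genes measured and the clamp stayed above the limit on every array of the larval clock groups. The lowest values were Mcm5 at 5.57 on Tim, Pdf-Gal80 replicate 3 and Mcm2 at 5.88 on Pdf replicate 3. PCNA was at 11.36, 10.44 and 10.43 in Pdf cells, at 9.98, 11.20 and 11.38 in Tim cells and at 9.09, 8.12 and 7.12 in Tim, Pdf-Gal80 cells, against 11.64, 13.01 and 12.18 in larval Elav cells. Only the Tim, Pdf-Gal80 difference was called for PCNA (17.9-fold lower, adjusted p = 1.39e-05), while its adjusted p was 0.0523 in Pdf and 0.0775 in Tim cells. Mcm6 had means of 11.22, 11.39 and 9.34 in Pdf, Tim and Tim, Pdf-Gal80 cells, against 12.85 in larval Elav cells, and again only the last was called (11.4-fold lower). Mcm2 was called in all 3 groups, 18.4-fold lower in Pdf, 4.23-fold in Tim and 33.1-fold in Tim, Pdf-Gal80 cells. Its Pdf arrays were uneven, at 9.56, 8.90 and 5.88.

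Of the 7 origin and licensing genes, 6 were lower in Pdf cells, 5 in Tim cells and 7 in Tim, Pdf-Gal80 cells than in larval Elav cells. Cdc6, the licensing ATPase, was at 4.92, 2.85 and 2.54 in Pdf cells, at 3.38, 3.08 and 3.74 in Tim cells and at 2.42, 2.35 and 2.82 in Tim, Pdf-Gal80 cells, against 7.11, 8.15 and 8.11 in larval Elav cells. It was below the limit on all 9 arrays of the clock groups and at least 6.91-fold lower in each. Cdc6 passed the filter through larval Elav cells alone, so these differences are not independent of it. Orc2 was at 3.90, 2.50 and 2.34 in Pdf cells, at 5.97, 4.98 and 4.96 in Tim cells and at 4.34, 3.97 and 5.54 in Tim, Pdf-Gal80 cells, against 7.83, 9.58 and 9.12 in larval Elav cells. Most of these Orc2 arrays lay under the limit, with differences of at least 14.3-fold in Pdf, 11.4-fold in Tim and 12.6-fold in Tim, Pdf-Gal80 cells. Orc1 stayed above the limit in all 3 groups. It was at 8.49, 9.31 and 6.33 in Pdf cells (6.82-fold lower, adjusted p = 0.0142), at 8.99, 9.22 and 10.76 in Tim cells (not called, adjusted p = 0.321) and at 8.37, 8.68 and 8.38 in Tim, Pdf-Gal80 cells (5.06-fold lower, adjusted p = 0.0241), against 10.95, 10.92 and 10.57 in larval Elav cells.

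Of the 17 genes of mitosis, 12 were lower in Pdf cells, 12 in Tim cells and 16 in Tim, Pdf-Gal80 cells than in larval Elav cells. Incenp was at 11.54, 10.64 and 9.98 in Pdf cells, at 8.19, 10.29 and 11.52 in Tim cells and at 4.19, 2.80 and 2.81 in Tim, Pdf-Gal80 cells, against 11.78, 12.50 and 12.32 in larval Elav cells. It was thus under the limit only in Tim, Pdf-Gal80 cells among the larval groups (at least 147-fold lower, adjusted p = 2.87e-08), 4.60-fold lower in Tim cells (adjusted p = 0.0304) and not called in Pdf cells (adjusted p = 0.134). CycB was at 9.71, 10.50 and 7.46 in Pdf cells, at 7.50, 10.04 and 11.25 in Tim cells and at 4.68, 3.64 and 3.47 in Tim, Pdf-Gal80 cells, against 12.61, 13.80 and 12.93 in larval Elav cells. It was called in all 3 groups, 14.8-fold lower in Pdf, 11.5-fold in Tim and at least 277-fold in Tim, Pdf-Gal80 cells. Klp61F followed with 7.72-fold, 4.91-fold and at least 59.6-fold. The anaphase regulators fzy, pim and thr fell in every group, and thr was at least 16.8-fold lower in Pdf cells, at least 20.0-fold in Tim cells and at least 20.0-fold in Tim, Pdf-Gal80 cells.

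CycE stayed above the limit in every larval group. It was at 9.75, 9.57 and 8.06 in Pdf cells, at 8.62, 9.24 and 10.10 in Tim cells and at 8.86, 8.05 and 9.05 in Tim, Pdf-Gal80 cells, against 12.15, 12.01 and 12.35 in larval Elav cells. The 3 clock groups overlapped one another and all lay below larval Elav cells, by 8.26-fold, 7.23-fold and 11.5-fold. CycD and Bub1 were the 2 genes not called in Tim, Pdf-Gal80 cells (adjusted p = 0.0722 and 0.785).

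Pdf cells and Tim cells were then each set against Tim, Pdf-Gal80 cells. These 2 comparisons share the Tim, Pdf-Gal80 arrays. In larval Pdf cells 18 of the 34 genes were higher and 1 lower (15.1% and 7.56% of all genes tested), with a median of 1.93 log2, or 1.50 with values under 5 raised to 5, beside 0.26 over all genes. In larval Tim cells 19 were higher and 0 lower (12.4% and 3.87% of all genes), with a median of 2.50 beside 0.33. All Pdf arrays lay above all Tim, Pdf-Gal80 arrays for 18 genes, and all Tim arrays for 23, against 22.2% and 24.8% of all genes. Pdf arrays lay below Tim, Pdf-Gal80 arrays for 2 genes, Orc2 and cid, against 14.9% of all genes, and Tim arrays for 0, against 12.7%. Fitted on the compared groups only, the counts of higher genes were 10 for Pdf and 11 for Tim (6.81% and 5.74% of all genes). With larval Pdf replicate 3 alone, 4 genes were called higher in Pdf cells (9.52% of all genes). Several marker lists differed between these groups, and their part in the result was not tested. Ring gland genes summed to 4.89 to 5.06 log2 in Pdf cells and 10.76 to 15.34 in Tim cells, against 15.25 to 15.48 in Tim, Pdf-Gal80 cells. For neuron markers the sums were 14.36 to 15.27 and 14.37 to 15.04, against 13.31 to 14.74. For glia markers they were 12.29 to 13.72 and 12.12 to 12.95, against 11.63 to 12.62. The summed level of neuroblast markers moved with these genes. It was 12.24 to 13.30 log2 in Pdf cells and 11.54 to 13.97 in Tim cells, against 9.41 to 10.61 in Tim, Pdf-Gal80 cells. The mean of klu was 6.52 in Pdf and 8.25 in Tim cells, against 6.5 in Tim, Pdf-Gal80 cells. The markers insc and brat went the other way. The mean of insc was 5.7 in Pdf and 5.51 in Tim cells, against 7.06 in Tim, Pdf-Gal80 cells. The mean of brat was 7.59 in Pdf and 7.64 in Tim cells, against 8.51 in Tim, Pdf-Gal80 cells.

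All 3 passenger genes and all 3 motor and cytokinesis genes were higher in Pdf and in Tim cells than in Tim, Pdf-Gal80 cells. Incenp exceeded its Tim, Pdf-Gal80 level at least 52.7-fold in Pdf cells (adjusted p = 1.01e-06) and at least 32.0-fold in Tim cells (adjusted p = 1.18e-05). For borr the excess was at least 23.7-fold in Pdf and 23.5-fold in Tim cells, and for CycB at least 18.7-fold and 24.2-fold. Klp61F was at 8.87, 8.33 and 6.65 in Pdf cells and at 7.13, 8.86 and 9.81 in Tim cells, against 3.47, 2.65 and 2.49 in Tim, Pdf-Gal80 cells. It was at least 7.73-fold and 12.2-fold higher. Each of these mitotic genes had all Pdf and all Tim arrays above all Tim, Pdf-Gal80 arrays.

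Of the 5 helicase genes 2 were higher in Pdf cells and 4 in Tim cells, and of the 7 origin genes 1 was higher in each, Orc4. Mcm3 was at 10.62, 11.64 and 9.99 in Pdf cells and at 10.09, 11.13 and 12.08 in Tim cells, against 9.15, 7.57 and 7.97 in Tim, Pdf-Gal80 cells (5.74-fold and 7.31-fold higher). PCNA was 6.20-fold higher in Pdf and 6.68-fold in Tim cells. Mcm6, Orc1, Orc5, dup, Mcm10, RnrL and Cdc6 were called in neither comparison. Orc2 was the gene called lower in Pdf cells (adjusted p = 0.0204). All 3 of its Pdf arrays lay under the limit, as did 2 of its 3 Tim, Pdf-Gal80 arrays, and with values under 5 raised to 5 it was not called.

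Most of the 34 genes were also read as 14 replication genes (helicase, origin and synthesis genes) and 17 mitosis genes (passengers, checkpoint, motors, centromere and condensin genes, CycB and CycB3), with CycE, CycD and Cdk2 in neither. This division was drawn after the values were seen, and it is a description with no test. In Tim, Pdf-Gal80 cells 11 of the 14 replication genes were above 5 on all arrays but 6 of the 17 mitosis genes were, and 8 mitosis genes were below 5 on all arrays. In larval Pdf cells and in larval Tim cells 11 of 14 and 13 of 17 were above 5 on all arrays. The mitosis median minus the replication median on an array was -1.23, -0.51 and -1.43 log2 in Pdf cells, -1.81, -1.38 and -1.41 in Tim cells and -3.36, -3.22 and -2.34 in Tim, Pdf-Gal80 cells, against -0.58, -0.95 and -0.98 in larval Elav cells. The mitosis medians of the 3 Tim, Pdf-Gal80 arrays were themselves under the limit. With values under 5 raised to 5 their gaps were -3.33, -2.53 and -1.70, and the last of these lay within the range of larval Tim cells, whose gaps did not move. Called higher than in Tim, Pdf-Gal80 cells were 4 of 14 replication and 13 of 17 mitosis genes in Pdf cells, and 6 of 14 and 12 of 17 in Tim cells. Probe sets differ in background and amplification, so the level of the gap has no meaning between genes, only its difference between arrays.

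**Figure D4:**
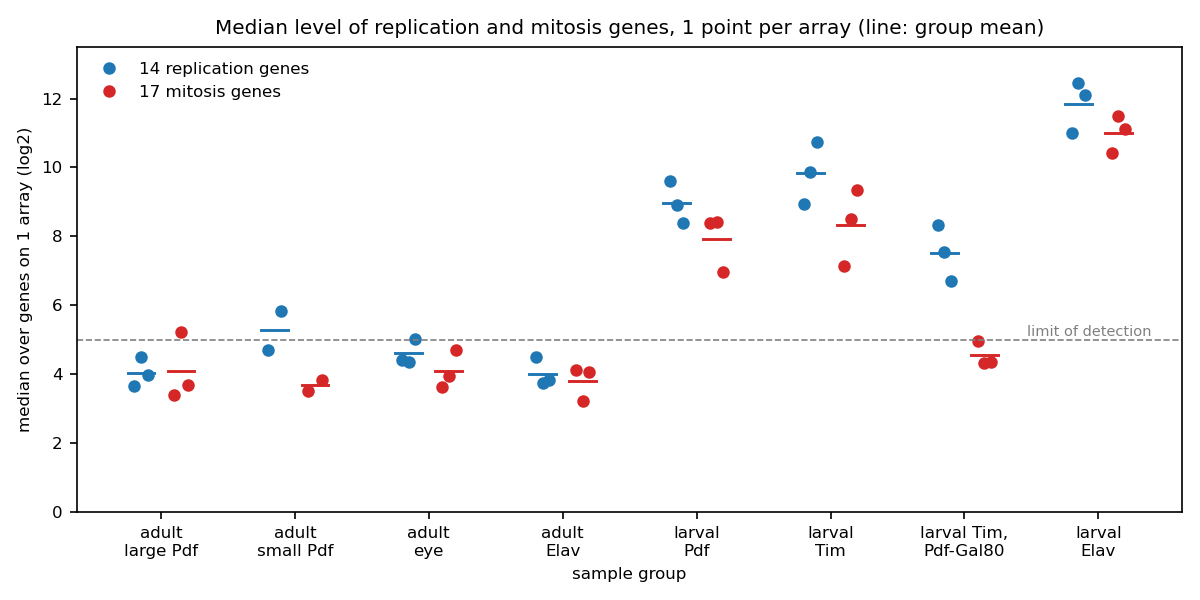
Median log2 expression value over 14 replication genes (blue) and over 17 mitosis genes (red) on each array (points), with the group mean (line) and the limit of detection of 5 (dashed). On larval Tim, Pdf-Gal80 arrays the replication median was 6.70 to 8.33 and the mitosis median 4.31 to 4.97, while in the other larval groups both medians were 6.96 or higher.

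Adult Pdf cells set against larval Pdf cells gave the age difference within one driver. In adult large Pdf cells 25 of the 34 genes were lower and 0 higher (15.2% and 11.3% of all genes tested), with a median of -3.14 log2, or -2.49 with values under 5 raised to 5, beside -0.08 over all genes. In adult small Pdf cells 20 were lower and 0 higher (7.50% and 4.82% of all genes), with a median of -3.07, or -2.16, beside -0.01. Arrays did not overlap for 29 genes lower in large and 26 lower in small Pdf cells, against 18.9% and 20.3% of all genes. For Bub1 both small Pdf arrays lay above all larval Pdf arrays, as for 21.4% of all genes, and large Pdf arrays lay above the larval ones for 0 genes, against 19.4%. Fitted on the compared groups only, the counts were 16 and 4 (6.75% and 0.965% of all genes). With larval Pdf replicate 3 alone they were 12 and 9 (6.36% and 2.82%). Leaving out adult small Pdf replicate 1 or 2 gave 13 or 12 genes lower in small Pdf cells (3.83% and 5.28%). Glia markers above 5 numbered 1 to 4 of 10 in adult large and 2 in adult small Pdf cells, against 6 to 7 in larval Pdf cells. Hemocyte markers numbered 2 to 3 of 8 and 1, against 0 to 7. The part of these markers in the result was not tested. The count of neuroblast markers above 5 also moved with the genes. It was 2 to 5 of 9 in adult large Pdf cells and 2 in adult small Pdf cells, against 7 to 9 in larval Pdf cells. The marker brat was above 5 on every Pdf array of both ages. It went the other way, with means of 8.47 and 7.94 in adult large and small Pdf cells, against 7.59 in larval Pdf cells.

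PCNA was at 2.12, 2.09 and 2.90 in adult large Pdf cells and at 2.12 and 2.95 in adult small Pdf cells, against 11.36, 10.44 and 10.43 in larval Pdf cells. No adult array reached the limit, and the gene was at least 53.5-fold lower in both (adjusted p = 2.18e-08 for large and 1.65e-07 for small cells). Mcm3 was at 3.82, 4.54 and 5.08 in large Pdf cells and at 6.12 and 6.79 in small Pdf cells, against 10.62, 11.64 and 9.99 in larval Pdf cells, at least 52.9-fold and 19.7-fold lower. CycB was at least 17.3-fold lower in large and 18.7-fold in small Pdf cells, tum at least 14.2-fold in both, and ncd at least 17.3-fold and 23.9-fold. Incenp was at 5.66, 5.95 and 6.02 in large Pdf cells and at 7.90 and 6.52 in small Pdf cells, against 11.54, 10.64 and 9.98 in larval Pdf cells. It was lower in both (28.7-fold and 11.4-fold) yet above the limit on all 5 adult Pdf arrays. thr was called lower in both, although its larval Pdf arrays, at 4.79, 5.77 and 4.33, lay about the limit themselves.

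Of the 7 origin genes, dup alone was called, at least 12.2-fold lower in large and 9.42-fold in small Pdf cells. Orc1 was at 9.62, 7.06 and 8.88 in adult large Pdf cells and at 7.63 and 5.92 in adult small Pdf cells, against 8.49, 9.31 and 6.33 in larval Pdf cells. The large Pdf arrays overlapped the larval ones. Orc2, Cdc6 and cid were below 5 on every array of all 3 Pdf groups, so no difference could be measured for them.

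The 2 adult Pdf groups and the eye were each set against adult Elav cells, whose arrays these 3 comparisons share. In adult large Pdf cells 1 gene was higher and 0 lower (3.40% and 5.66% of all genes tested), and in adult small Pdf cells 2 were higher and 0 lower (3.57% and 5.18%). In the eye 0 were higher and 1 lower (14.4% and 25.5%). Arrays did not overlap for 3 genes higher and 1 lower in large Pdf cells (13.4% and 13.6% of all genes), 7 higher and 2 lower in small Pdf cells (18.7% and 20.9%) and 2 higher and 2 lower in the eye (20.0% and 36.3%). Some of these genes were under the limit on every array of both groups, where such a gap carries little information. They were PCNA and pim, higher in the eye, and Cdc6, higher, and Mcm10, lower, in small Pdf cells. Orc1 was higher in both Pdf groups, at 9.62, 7.06 and 8.88 in large and 7.63 and 5.92 in small Pdf cells, against 4.39, 2.79 and 2.29 in adult Elav cells. All Pdf arrays were above the limit and all adult Elav arrays below it (at least 11.5-fold, adjusted p = 0.000154 for large cells, and at least 3.43-fold, adjusted p = 0.0128 for small cells). Incenp was the other gene higher in small Pdf cells, at 7.90 and 6.52, against 2.66, 4.48 and 4.79 in adult Elav cells (at least 4.62-fold, adjusted p = 0.0136). In the eye Bub3 was at 5.44, 4.81 and 5.29, against 8.31, 8.55 and 7.90 in adult Elav cells (at least 8.06-fold lower, adjusted p = 0.000299).

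These counts of 0 to 2 among 34 genes moved with single arrays. The large Pdf count was 2 without adult large Pdf replicate 1 or 3 (2.69% and 2.39% of all genes). The small Pdf count was 0 without adult small Pdf replicate 1 (1.90%), 0 when fitted on the compared groups only (1.98%), and 1 without adult Elav replicate 1 or 3 (2.45% and 2.82%). In the eye, 2 genes were higher without adult eye replicate 1 (12.8% of all genes) and 1 without adult Elav replicate 1 or 3 (12.1% and 14.4%). Without adult Elav replicate 3, 2 genes were lower in the eye (23.4%). For the whole eye, glia markers were above 5 for 6 to 7 of 10, photoreceptor markers for 7 of 7 and hemocyte markers for 5 to 6 of 8, against 2 to 3 glia, 1 photoreceptor and 1 to 3 hemocyte markers in adult Elav cells, and their part in the result was not tested.

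The last comparison asked whether the age difference within Pdf cells differed from that within Elav cells, by testing the difference of the 2 differences. It was positive for 17 of the 34 genes in large Pdf cells (6.84% of all genes) and for 18 in small Pdf cells (5.71%), and negative for 0 in both (10.9% and 9.61%). The median was 3.18 log2 for large and 3.42 for small Pdf cells, beside 0.04 and 0.05 over all genes. Larval Pdf replicate 3, the array without hemocyte markers, had a median over the 34 genes of 7.74, against 8.99 and 8.69 on replicates 1 and 2. Larval Elav cells had the higher larval mean for 33 of the 34 genes. No adult array of either driver was above the limit for 7 of the 17 genes (Cdc6, Klp61F, Mcm2, Orc2, cid, pim and thr) and for 8 of the 18 (Cdc6, CycB3, Mcm10, Mcm2, Orc2, cid, pim and thr). For these genes no adult level was measured, and the value reflects the larval groups alone. For the other 10 genes in each comparison at least 1 adult array was above the limit. Orc1 was at 8.13 log2 for large and 6.39 for small Pdf cells, or 6.29 and 4.55 with values under 5 raised to 5, since all adult Elav arrays were under the limit. For small Pdf cells CycB3 at 4.71 and glu at 4.66 were then larger.

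**Figure D5:**
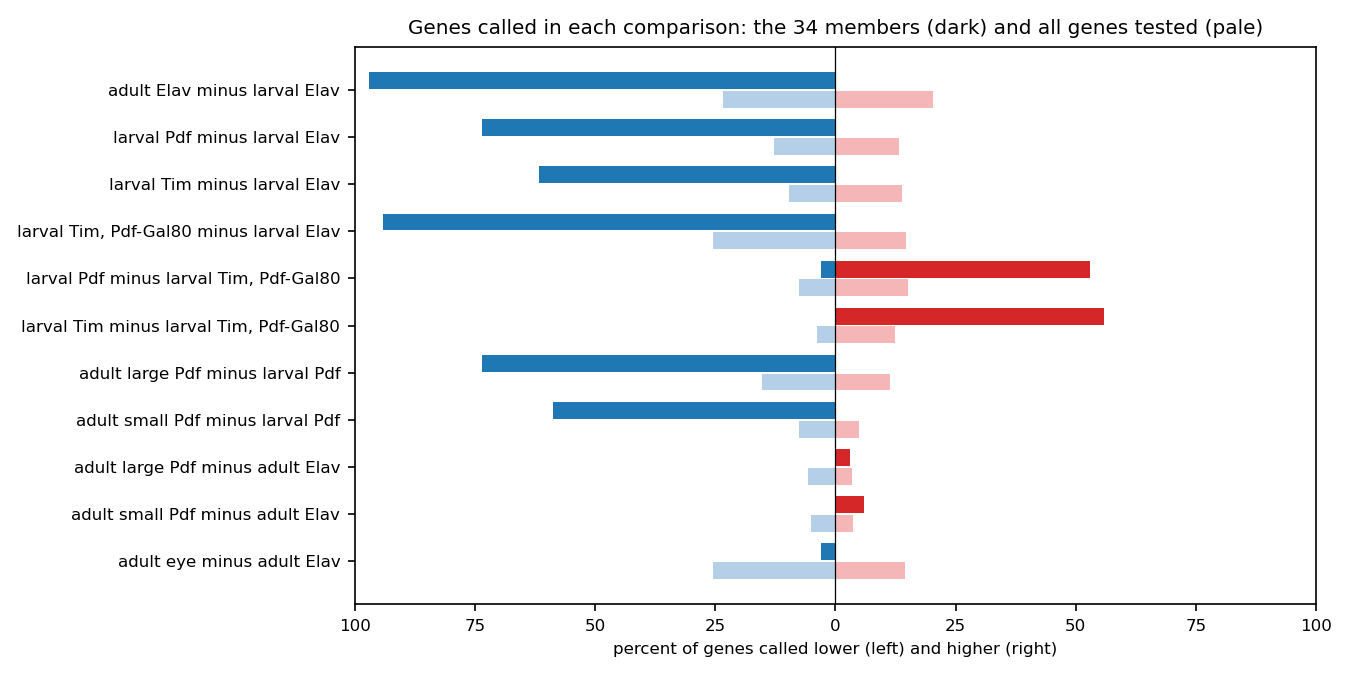
Percent of genes called lower (to the left) and higher (to the right) in each of 11 comparisons, for the 34 replication and mitosis genes (dark bars) and for all 7670 genes tested (pale bars). In the comparisons of adult with larval cells and of clock cells with larval Elav cells the dark bars reach left only, and in the last 3, within adults, they hold at most 2 genes.

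Other genes of the same pathways were listed by role, apart from the 34. Their counts stand beside shares of all genes of 23.4% lower in adult than in larval Elav cells, and 12.8%, 9.63% and 25.4% lower in larval Pdf, Tim and Tim, Pdf-Gal80 cells than in larval Elav cells. Of 27 other replication genes, 25 were lower in adult than in larval Elav cells. Lower than in larval Elav cells were 21 in larval Pdf cells, 10 in larval Tim cells and 23 in larval Tim, Pdf-Gal80 cells, and none was higher. Ts, thymidylate synthase, was at least 66.3-fold lower in adult than in larval Elav cells, DNAlig1, the replicative ligase, at least 59.8-fold, and RfC38, a subunit of the clamp loader, 37.4-fold. Ts kept a level of 9.54, 7.35 and 7.34 in Tim, Pdf-Gal80 cells, against 10.13, 11.37 and 11.65 in larval Elav cells (7.87-fold lower). Of 26 other spindle, kinetochore and centrosome genes, 19 were lower in adult than in larval Elav cells, and 17, 17 and 21 were lower in larval Pdf, Tim and Tim, Pdf-Gal80 cells. feo, which bundles midzone microtubules in cytokinesis, was at 5.94, 3.79 and 3.48 in Tim, Pdf-Gal80 cells, against 12.95, 12.98 and 13.74 in larval Elav cells (at least 241-fold lower, adjusted p = 5.22e-07).

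Of 18 other cohesin, condensin and anaphase-promoting genes, 13 were lower in adult than in larval Elav cells, and 7, 8 and 12 were lower in larval Pdf, Tim and Tim, Pdf-Gal80 cells. Cks30A, a small protein that binds Cdk1, was at 10.61, 8.21 and 8.55 in Pdf cells and at 5.69, 8.86 and 8.52 in Tim cells, against 2.91, 2.61 and 2.84 in Tim, Pdf-Gal80 cells, at least 17.4-fold and 6.45-fold higher. Cap-D2, a condensin subunit, was at least 9.79-fold and 6.42-fold higher. Both genes were under the limit on all Tim, Pdf-Gal80 arrays. Of 16 E2F, Rb and Cdk regulators, 10 were lower in adult than in larval Elav cells, and 6, 7 and 11 were lower in larval Pdf, Tim and Tim, Pdf-Gal80 cells. The gene higher in Tim, Pdf-Gal80 cells was twe, the Cdc25 phosphatase of meiosis. It was at 7.34, 8.70 and 7.54 in Tim, Pdf-Gal80 cells, against 6.30, 5.68 and 6.80 in larval Elav cells (3.02-fold, adjusted p = 0.00747), and was lower in Pdf cells (at least 7.26-fold) and in Tim cells (at least 6.74-fold) than in Tim, Pdf-Gal80 cells.

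Within Pdf cells by age, 12 of the 27 replication, 12 of the 26 spindle, 10 of the 18 cohesin and 5 of the 16 regulator genes were lower in adult large Pdf cells, against 15.2% of all genes. In adult small Pdf cells 12, 9, 4 and 2 were lower, against 7.50% of all genes, so that the regulators lay near the share of all genes. None was higher in either. Set against adult Elav cells, Cdc7, the kinase that fires origins, was the replication gene higher in adult large Pdf cells (11.42, 10.39 and 11.33) and in adult small Pdf cells (11.87 and 11.90), against 9.13, 10.31 and 9.56 in adult Elav cells (log2 differences of 1.38 and 2.22, adjusted p = 0.0433 and 0.00419). Cdc7 was above 9 on every array of the study.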

How the data were processed

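RNA of sorted cells or dissected eyes (0.1 to 0.4 ng), amplified in 2 rounds, was hybridised to 23 one-colour Affymetrix arrays, per the labels' protocols. The deposited values were the authors' log2 expression values made with GCRMA, per the submitters' processing notes; its version is not given in the sources used here. They ran from 1.684 to 16.155. Array medians lay near 3, so most probe sets were dim, and differences under 5 carry little information. The number of arrays limits the precision. Of 18952 probe sets, 183 were controls, 13647 had 1 gene, 402 several and 4720 none. Symbols of 13544 were updated through the gene ID. Each gene was represented by its probe set of highest mean across the 23 arrays, and 7670 of 11982 genes were kept.

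One model of 8 group means was fitted with limma 3.58.1 (lmFit and eBayes, R 4.3.3), two-sided, with Benjamini-Hochberg adjustment over the 7670 genes. Called means adjusted p under 0.05 and a fold of at least 2. Folds marked "at least" were computed with values under 5 raised to 5, and other folds from the group means. A summed marker level is the log2 of the sum of the list's linear values on an array. On simulated data for larval Pdf against larval Elav cells (7670 genes), 34 of 100 genes changed by 2 log2 and 90 of 100 changed by 4 log2 were called, with 6 false calls. The members, lists and comparisons were chosen with earlier results of these data known. In each comparison up to 5 called members a direction with the largest difference were named, with the members of each role group and those above 5 in adult Elav cells, and of the other lists up to 4 called genes a direction. Alternatives were another normalization, array weights, a trend, no filter, mean of probe sets, raised low values, fewer groups, the replicate block and single arrays left out.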

Additional observations from a re-analysis of the deposited data

Results flagged for a closer look

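The difference adult minus larval in Pdf cells, less the same difference in Elav cells, was itself tested. It was positive for 17 genes with large Pdf cells (6.84% of all genes) and 18 with small Pdf cells (5.71%). It was negative for 0 in both, against 10.9% and 9.61% of all genes. For 7 of the 17 and 8 of the 18 genes no adult array of either driver was above the limit of 5. Their adult drop was thus not measured, and the value reflects the larval groups alone. These results were picked because that test passed. For large Pdf cells the 5 with the biggest differences after values under 5 were raised to 5 were Orc1 at 8.13 log2 (adjusted p = 5.09e-05 with limma), CycB3 at 5.49 (0.00212), CycE at 4.74 (0.000281), Mcm2 at 4.16 (0.00678) and borr at 4.95 (0.0160). For small Pdf cells they were CycB3 at 4.41 (0.0176), glu at 4.94 (0.00628), Orc1 at 6.39 (0.00106), Mcm2 at 4.07 (0.0134) and thr at 4.21 (0.000460). With values under 5 raised to 5 they were 6.29, 4.80, 4.38, 4.20 and 4.14 for large Pdf cells, and 4.71, 4.66, 4.55, 4.20 and 4.07 for small Pdf cells, in the same order of genes. Mcm2 in both comparisons, and CycB3 and thr with small Pdf cells, were among the genes with no adult array above the limit. The adult large Pdf arrays of borr were uneven, at 3.59, 7.86 and 6.83. Replicate 2 of these had the highest mitosis median of the adult arrays, 5.21. It also read 8.67 for the neuroblast marker wor, against 3.10 and 3.15 on the others. On it dpn and ase were at 2.34 and 2.79. The part of this array was not tested. For Orc1 adult large Pdf cells, at 9.62, 7.06 and 8.88, overlapped larval Pdf cells, at 8.49, 9.31 and 6.33, while adult Elav cells, at 4.39, 2.79 and 2.29, lay far below larval Elav cells, at 10.95, 10.92 and 10.57. Between the larval groups, 6 of 9 neuroblast markers fell in Pdf cells relative to Elav cells, and their part in these differences was not tested.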

How the results depend on the processing

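Of 233 called pairs of a gene and a comparison, 135 were called under all alternatives, 98 were lost under at least 1 and 0 changed direction. Fitted on the compared groups only, the counts were 10 higher and 0 lower for larval Pdf against larval Tim, Pdf-Gal80 cells, 11 higher for larval Tim against larval Tim, Pdf-Gal80 cells, 16 and 4 lower for adult large and small Pdf against larval Pdf cells, and 0 higher for adult small Pdf against adult Elav cells. Fewer arrays entered these fits. With larval Pdf replicate 3 alone, an alternative chosen after seeing the data, they were 4 higher against larval Tim, Pdf-Gal80 cells, and 12 and 9 lower for adult large and small Pdf cells. Values under 5 raised to 5 gave 0 lower for larval Pdf against larval Tim, Pdf-Gal80 cells (6.92% of all genes). They gave 1 higher for adult small Pdf against adult Elav cells (3.90%). A second quantile normalization or array weights gave 2 higher for adult large Pdf against adult Elav cells (4.24% and 3.91% of all genes). Array weights gave 2 lower for the eye (32.1%). The causes were not tested. The share of all genes called also moved when an array was left out. The share lower in larval Tim than in larval Elav cells was 9.63% with all arrays. It was 7.07% without larval Tim replicate 1 and 5.83% without larval Elav replicate 2. The ranges below and the replicate block counts stand without such shares. A moved count there does not separate the 34 genes from all genes. Without any 1 array, lower counts ran from 18 to 26 for larval Pdf, 10 to 24 for larval Tim, 31 to 32 for larval Tim, Pdf-Gal80 and 33 to 33 for adult Elav against larval Elav cells, and from 23 to 26 for large and 12 to 20 for small against larval Pdf cells. Against larval Tim, Pdf-Gal80 cells they ran from 12 to 18 higher and 0 to 1 lower in larval Pdf and from 13 to 20 higher in larval Tim cells. Against adult Elav cells they ran from 1 to 2 higher for large Pdf, 0 to 2 higher for small Pdf, and 0 to 2 higher and 1 to 2 lower for the eye. The differences of differences ran from 14 to 18 (large) and 13 to 19 (small).

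Same-numbered replicates showed little shared deviation. Their residual correlations ran from -0.32 to 0.22 over 31 pairs, 3 of them over 0.1. The best match had the same number in 11 of the 31. Residuals are constrained within groups of 2 or 3 arrays, so this check cannot decide whether the numbers pair the samples. The samples were treated as unpaired. With the replicate block, the counts were 33 lower for adult Elav and 20 lower for larval Tim against larval Elav cells, and 18 lower for adult small Pdf against larval Pdf cells. The block moved no count by over 1.5 times and lost 7 of the 233 pairs.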
